A study of Mus musculus with 14 samples.

Results

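Peg3 and 7 other imprinted genes with roles in growth (H19, Meg3, Mest, Cdkn1c, Grb10, Plagl1 and Ndn) were followed across wild-type and Myf6 knockout mouse muscle, at rest and after injury. The 8 genes were chosen by name from 49585 genes in the expression tables, with the wild-type and knockout values of these libraries already known, so their differences between the genotypes are given as a description without a test. All 8 were found in both tables. RNA-seq had been carried out on total RNA of hind limb skeletal muscle in 4 groups of 3 libraries: wild-type (WT) without injury, WT with injury, Myf6 KO without injury and Myf6 KO with injury. Myf6, also called MRF4, is a myogenic transcription factor of differentiated fibres. The labels do not give the knockout allele, strain, age or sex, nor how the muscle was injured and how long before sampling. The sample descriptions carry numbers with L for uninjured and R for injured libraries, read here as 3 WT and 3 KO animals that each gave both libraries. A peak list from 1 ChIP-seq library of Myf6 in primary myotubes, precipitated with a Flag antibody and compared with 1 control, accompanies the RNA.

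Imprinted genes are expressed mainly from the allele of 1 parent, and many of them act on growth, with paternally expressed genes often promoting it and maternally expressed genes often restraining it. Peg3, Mest, Plagl1 and Ndn are paternally expressed. H19, Meg3 and Cdkn1c are maternally expressed, and Grb10 is so outside the nervous system. In muscle, Peg3 (also called Pw1) marks satellite cells and interstitial progenitors, and several of the other genes are high in fetal muscle and decline after birth. The deposited values do not separate the parental alleles, so each value is the sum of both.

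The start regions of Peg3 and Meg3 and the miRNA within H19 are shown because those 3 genes had the largest differences between the genotypes among the 8. The sequences are from RefSeq (GRCm38.p6), and 6 of the 8 genes had a promoter entry, H19 and Cdkn1c being the others. The 250 bases that precede the Peg3 start of the promoter entry lie at chr7:6730420-6730669 on the minus strand. That start lies within the Peg3 gene span, whose end at 6730462 is the start used for the peak distances below. Those before 1 of 2 Meg3 starts lie at chr12:109540746-109540995 on the plus strand. Capitals mark TGACGTCA, the palindromic cAMP response element, which begins 178 bases before the Peg3 start and 57 bases before that Meg3 start.
Peg3: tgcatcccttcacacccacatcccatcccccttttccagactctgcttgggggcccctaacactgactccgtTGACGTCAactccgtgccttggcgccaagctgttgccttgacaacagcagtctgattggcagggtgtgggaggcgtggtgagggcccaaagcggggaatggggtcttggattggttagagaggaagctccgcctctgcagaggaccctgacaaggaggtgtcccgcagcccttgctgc
Meg3: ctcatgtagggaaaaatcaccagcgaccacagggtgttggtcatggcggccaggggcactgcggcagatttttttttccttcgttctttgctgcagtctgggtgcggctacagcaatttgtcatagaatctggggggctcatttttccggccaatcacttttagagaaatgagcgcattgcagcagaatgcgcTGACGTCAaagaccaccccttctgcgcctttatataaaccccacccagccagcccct
H19 hosts miR-675, whose 2 mature forms lie on the minus strand at chr7:142577112-142577133 and chr7:142577078-142577099, with the seed (bases 2 to 8) in capitals.
mmu-miR-675-5p: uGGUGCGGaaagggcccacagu
mmu-miR-675-3p: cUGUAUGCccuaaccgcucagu

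Motifs were searched on both strands after the sequences had been seen, and a match only describes the letters. TGACGTCA was present in 508 of 32851 windows of 250 bases before RefSeq starts (1.55%), and among the 6 genes it was in Peg3 and Meg3 only. Both also held CCAAT, the CCAAT box, which was in 33.8% of all windows. The Meg3 window shown held TATAAA, the core of a TATA box, which was in 12.4% of all windows. The E-box CANNTG is the element bound by myogenic factors such as Myf6. That E-box was in 6 of the 10 windows of the 6 genes (Grb10, Meg3, Mest and Plagl1), against 66.2% of all windows. The Mest windows that begin at chr6:30737800 and chr6:30737803 overlap almost fully, and the same E-box is counted in each. For Meg3 it was only in the window not shown, which held no TGACGTCA, CCAAT or TATAAA. The E-box form CAGCTG, which is contained in CANNTG, was in a Mest window only, against 13% of all windows. The 2 mature forms of miR-675 have different seeds. The row for Mir675 held 0 reads in all 12 libraries, which were not made from small RNA.

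The libraries were first checked for depth and for the labelled genotype and tissue. Between 1880087 reads (uninjured WT replicate 2) and 49392472 reads (injured KO replicate 3) were assigned to genes, with the next lowest library at 12704445. RPM is the reads of a gene per 1000000 assigned reads, so 3 reads, taken as the floor of detection, correspond to 0.0607 to 1.60 RPM depending on the library, and such floors cover counting error only. Myf6 was at 25.0 to 121 RPM in the WT and 1.86 to 3.46 RPM in the KO libraries, which separates the labelled genotypes in every library. The summed level of 8 myofibre markers was 156900 to 168900 RPM in uninjured WT, 195400 to 237500 RPM in uninjured KO, 163300 to 200400 RPM in injured WT and 151000 to 197900 RPM in injured KO. Mitochondrial genes took from 3.63% to 23.2% of the reads, with the highest share in injured KO replicate 2, a library that stands apart in several results below. The share was 18.1%, 22.3% and 13.8% in uninjured WT and 6.76%, 15.3% and 3.63% in uninjured KO. With injury it was 12.5%, 8.35% and 14.8% in WT and 4.95%, 23.2% and 4.30% in KO. Over the 12 libraries its Pearson's r with log2(RPM + 1) was 0.57 for Peg3, -0.78 for H19, 0.76 for Meg3 and 0.72 for Ndn. For Cdkn1c it was 0.61, for Mest -0.70, for Grb10 -0.20 and for Plagl1 -0.22. Its part in the differences between the genotypes was not tested. These are bulk samples, so fewer cells of a type and less RNA per cell cannot be told apart.

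**Figure D1:**
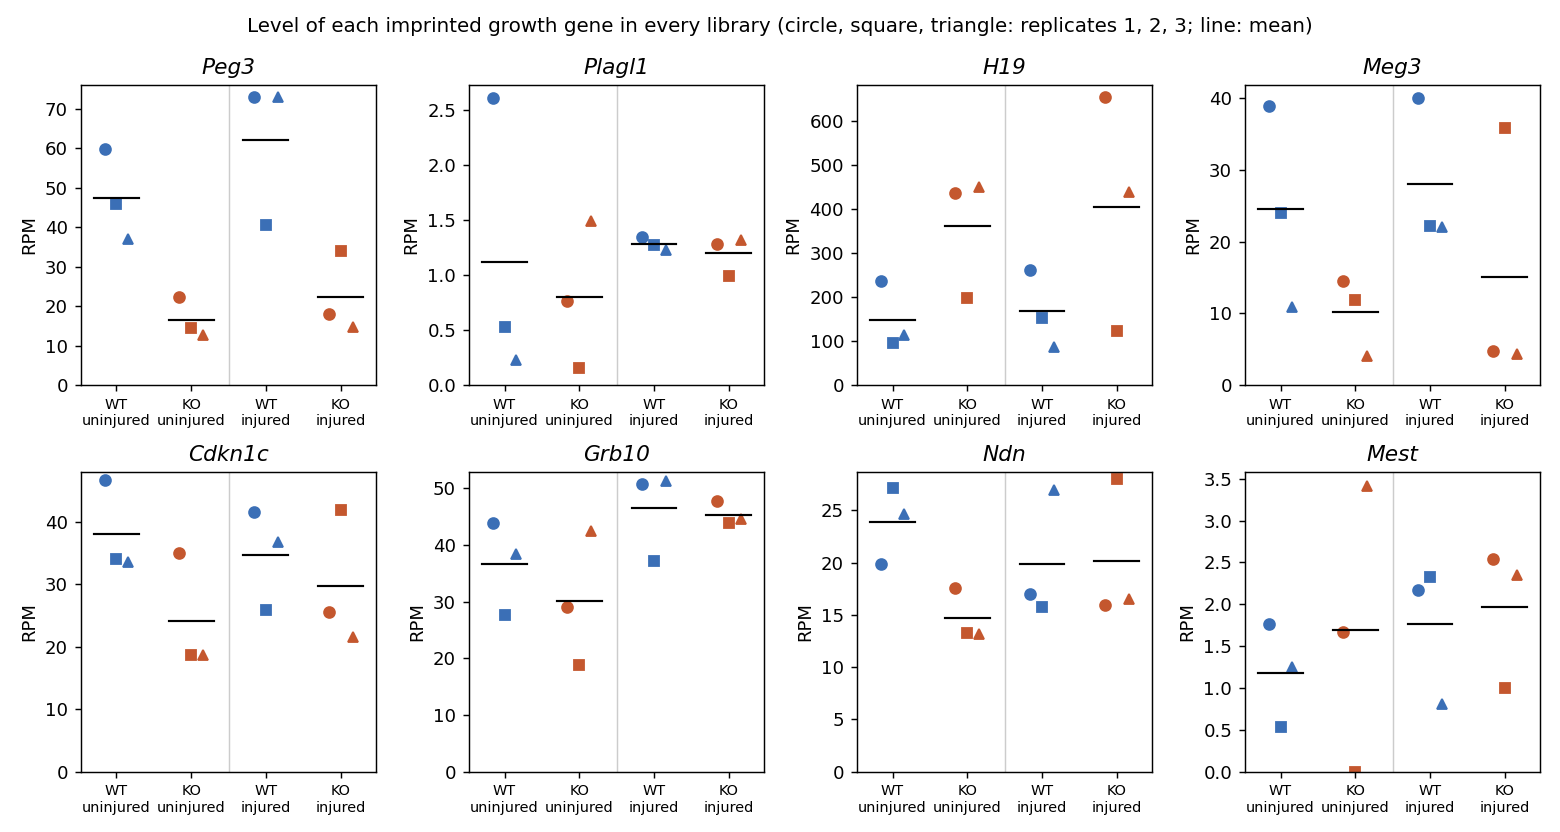
Level in RPM (linear axis from 0, a separate scale for each gene) of the 8 imprinted genes in the 12 libraries, in blue for WT and orange for KO, with symbols for replicates and a line at the mean of 3 libraries. Peg3 was lower in every KO library than in every WT library of the same state, while the H19 groups overlapped in both states.

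Peg3 (ENSMUSG00000002265.16) was lower in KO than in WT muscle in both states, and it was the only one of the 8 genes whose groups did not overlap in either in the deposited RPM. It encodes a large zinc finger protein that binds DNA and takes part in p53 and Tnf signalling. In uninjured muscle Peg3 was at 59.7, 45.7 and 37.0 RPM in the WT libraries and at 22.3, 14.3 and 12.8 RPM in the KO libraries. WT averaged 47.5 ± 11.5 RPM (SD, n = 3) and KO 16.5 ± 5.11 RPM (SD, n = 3), so WT was 2.88 times KO. After injury, Peg3 was at 72.8, 40.4 and 73.0 RPM in the WT libraries and at 18.0, 34.0 and 14.8 RPM in the KO libraries. Every KO value was again under every WT value, with the closest pair at 34.0 and 40.4 RPM. Injured WT averaged 62.1 ± 18.8 RPM (SD, n = 3) and injured KO 22.2 ± 10.3 RPM (SD, n = 3), a ratio of 2.79. The difference, KO minus WT on the log2(RPM + 1) scale, was -1.49 (SE 0.33) in uninjured and -1.48 (SE 0.37) in injured muscle. By mean level the groups ran from injured WT through uninjured WT and injured KO to uninjured KO. The WT groups overlapped each other, as did the KO groups, while the lowest uninjured WT library (37.0 RPM) was above the highest KO library of either state (34.0 RPM). That highest KO library was injured KO replicate 2, and without it the injured Peg3 difference was -1.82. When values were rescaled to reads outside mitochondrial genes, the injured Peg3 groups overlapped, and the uninjured did not.

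Plagl1 (ENSMUSG00000019817.18), a zinc finger transcription factor that acts on other imprinted genes, was low. It was under the floor of detection in replicate 2 of uninjured WT (1 read) and of uninjured KO (2 reads). The other uninjured libraries held 7 to 81 reads and the injured libraries 18 to 65. In RPM, Plagl1 was at 2.61, 0.532 and 0.231 in uninjured WT and at 0.761, 0.157 and 1.496 in uninjured KO. It did not reach the filter of the fit there (1 RPM or more in 3 or more of the 6 libraries), so 7 of the 8 genes were fitted in uninjured muscle. In injured muscle Plagl1 was at 1.35, 1.27 and 1.23 RPM in the WT libraries and at 1.28, 0.996 and 1.32 RPM in the KO libraries, a difference of -0.06 (SE 0.19) on the log2(RPM + 1) scale.

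H19 (ENSMUSG00000000031.15), a non-coding RNA next to Igf2, had higher means in KO in both states, but its groups overlapped in the deposited RPM. With upper quartile or TMM scaling the uninjured H19 groups did not overlap. In uninjured muscle H19 was at 236.6, 95.2 and 113.3 RPM in the WT libraries and at 435.1, 196.4 and 449.1 RPM in the KO libraries. Uninjured KO replicate 2 lay below WT replicate 1, and the other 2 KO libraries were above all WT libraries. WT averaged 148 ± 76.9 RPM (SD, n = 3) and KO 360 ± 142 RPM (SD, n = 3), a KO to WT ratio of 2.43. In injured muscle H19 was at 262.1, 152.7 and 86.8 RPM in the WT libraries and at 652.7, 123.2 and 438.7 RPM in the KO libraries. The low KO value was again replicate 2, and the means were 167 ± 88.6 RPM in WT and 405 ± 266 RPM in KO (SD, n = 3 each), a ratio of 2.42. The H19 difference was +1.30 (SE 0.43) in uninjured and +1.11 (SE 0.66) in injured muscle on the log2(RPM + 1) scale, and +1.81 in injured muscle without KO replicate 2. Among the KO libraries of each state, replicate 2 had the lowest H19 and the highest mitochondrial share, 15.3% in uninjured and 23.2% in injured muscle against 3.63% to 6.76% in the other 4. When the values were rescaled to reads outside mitochondrial genes, the H19 differences were +1.14 and +1.1.

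Meg3 (ENSMUSG00000021268.17), the non-coding RNA at the start of the maternal transcripts of the Dlk1 domain, had lower means in KO in both states, also with overlap. In uninjured muscle Meg3 was at 38.9, 23.9 and 10.9 RPM in the WT libraries and at 14.5, 11.9 and 4.09 RPM in the KO libraries. WT replicate 3 lay within the KO range, and the difference was -1.18 (SE 0.55) on the log2(RPM + 1) scale. In injured muscle Meg3 was at 40.1, 22.1 and 22.0 RPM in the WT libraries and at 4.79, 35.9 and 4.37 RPM in the KO libraries. KO replicates 1 and 3 were well below all WT libraries, whereas KO replicate 2 was among the high WT values. The injured Meg3 difference was -1.42 (SE 0.73), and without KO replicate 2 it was -2.33. In uninjured muscle the Meg3 difference ranged from -0.69 without KO replicate 3 to -1.65 without WT replicate 3.

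Cdkn1c and Grb10 act against growth signals through the cell cycle and receptor signalling, and neither separated the genotypes in the deposited values. Cdkn1c (ENSMUSG00000037664.13) encodes p57, an inhibitor of cyclin-dependent kinases that acts when myoblasts leave the cell cycle. It was at 46.6, 34.0 and 33.5 RPM in uninjured WT and at 35.0, 18.7 and 18.6 RPM in uninjured KO, a difference of -0.68 (SE 0.33) on the log2(RPM + 1) scale. One KO library reached the WT range, and the other 2 were below it. When rescaled to reads outside mitochondrial genes, all 3 uninjured KO values of Cdkn1c were below the WT values. In injured muscle Cdkn1c was at 41.6, 25.9 and 36.7 RPM in the WT libraries and at 25.6, 41.9 and 21.6 RPM in the KO libraries, a difference of -0.25 (SE 0.30). The highest of these 6 values was KO replicate 2, without which the Cdkn1c difference was -0.52. Grb10 (ENSMUSG00000020176.17) encodes an adaptor that binds the insulin and Igf1 receptors and dampens their signal. It was at 43.9, 27.7 and 38.3 RPM in uninjured WT and at 29.0, 18.8 and 42.5 RPM in uninjured KO, a difference of -0.32 (SE 0.35). In injured muscle Grb10 was at 50.8, 37.1 and 51.3 RPM in the WT libraries and at 47.6, 43.9 and 44.5 RPM in the KO libraries, a difference of -0.02 (SE 0.18). The injured KO values of Grb10 all lay inside the injured WT range.

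Ndn (ENSMUSG00000033585.5) encodes necdin, a protein of the MAGE family that favours myogenic differentiation and survival of muscle precursors. In uninjured muscle Ndn was at 19.9, 27.1 and 24.6 RPM in the WT libraries and at 17.6, 13.2 and 13.2 RPM in the KO libraries, with every KO value under every WT value. The means were 23.9 and 14.7 RPM, and the difference was -0.67 (SE 0.29) on the log2(RPM + 1) scale. Upper quartile scaling gave -0.42 and TMM scaling -0.44, against shifts of the median of all genes from -0.18 to 0.05 and 0.03, and the uninjured Ndn groups overlapped with both. In injured muscle Ndn was at 17.0, 15.7 and 26.9 RPM in the WT libraries and at 15.9, 27.9 and 16.5 RPM in the KO libraries, so the groups overlapped and the difference was +0.01 (SE 0.30). The genotype by injury interaction of Ndn, given as a description, was +0.68 (SE 0.41), with a limma adjusted p of 1 over all genes.

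Mest (ENSMUSG00000051855.15) encodes an enzyme of the alpha/beta hydrolase fold that is known from growing adipose tissue. It was at 1.77, 0.532 and 1.25 RPM in uninjured WT and at 1.67, 0 and 3.41 RPM in uninjured KO. The WT value of 0.532 RPM is 1 read in the shallowest library. In injured muscle Mest was at 2.18, 2.32 and 0.804 RPM in the WT libraries and at 2.54, 0.996 and 2.35 RPM in the KO libraries. The differences were +0.10 (SE 0.56) and +0.11 (SE 0.34) on the log2(RPM + 1) scale, and the groups overlapped in both states. The uninjured Mest estimate was -0.45 with a pseudocount of 0.1, and it ran from -0.38 without KO replicate 3 to +0.70 without KO replicate 2.

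**Figure D2:**
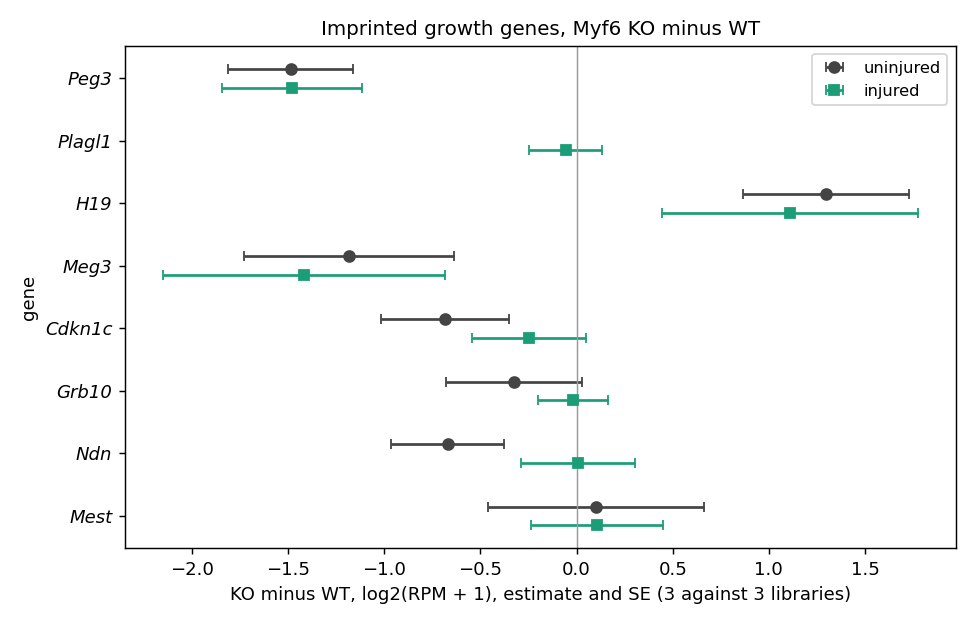
Difference between KO and WT for each gene (x axis, log2(RPM + 1)) with its standard error, circles for uninjured and squares for injured muscle, from 3 against 3 libraries. Peg3 lay at -1.49 and -1.48, Meg3 at -1.18 and -1.42 and H19 at +1.30 and +1.11, while Ndn and Cdkn1c were nearer to 0 in injured than in uninjured muscle. Plagl1 has no uninjured point.

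Across all genes, limma at an adjusted p of 0.05 called 35 of 12460 genes in uninjured muscle (0.281%) and 34 of 12625 in injured muscle (0.269%). None of the 7 and 8 fitted members of the group was among them, and DESeq2, which called 5.32% and 3.38% of all genes, called 2 and 1 of them and edgeR 0, from which nothing is read since the genes were chosen on this contrast. Of the 7 in uninjured muscle, 2 (Peg3 and Ndn) were lower in all KO libraries, 0 were higher in all and 5 overlapped, where 15.5% of all genes were lower and 6.2% higher in all KO libraries. Of the 8 in injured muscle, 1 (Peg3) was lower in all KO libraries, 0 were higher in all and 7 overlapped, where 8.63% of all genes were lower and 8.29% higher. The median difference of all genes was -0.18 in uninjured and 0.02 in injured muscle.

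Injury was also fitted for all 8 genes. The values of all 4 groups were known when these were chosen, and the interaction is built from the genotype differences in both states. The p-values of the 8 genes for injury and the interaction are thus only a description, and nothing is read from them. None of the 8 changed with injury past an adjusted p of 0.05 in limma, in WT, in KO or in the interaction of genotype and injury. Those fits called 0% of 13337 genes in each of the 3 comparisons, with 172, 468 and 208 genes at an unadjusted p under 0.05, and DESeq2 and edgeR also called 0. Peg3 was 0.36 higher (SE 0.35) with injury in WT, limma adjusted p 1, and 0.36 higher (SE 0.35) in KO, limma adjusted p 0.748. The KO estimate was 0.002 with upper quartile scaling, 0.10 with TMM and 0.02 without injured KO replicate 2. Its interaction was 0.01 (SE 0.50), so the estimates of the KO difference of Peg3 were nearly equal in both states, with a wide error. The other interactions ranged from -0.24 for Meg3 (SE 0.98) to +0.68 for Ndn, each with a limma adjusted p of 1.

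Grb10 was the only member of the 8 that was higher in the injured than in the uninjured library of all 6 animals, as 3.76% of all genes were, with differences of 0.07 to 1.18 on the log2(RPM + 1) scale. It was higher in all 6 also under each of the 3 other scalings. In KO its injured libraries (43.9 to 47.6 RPM) were all above its uninjured libraries (18.8 to 42.5 RPM), as for 6.12% of all genes, and the change was +0.65 (SE 0.29). With upper quartile scaling it was +0.28 and with TMM +0.38, and the KO groups then overlapped. As a description, the unadjusted limma p was 0.0444 and the adjusted p 0.728, beside a median change of all genes of 0.29 in that comparison. In WT the change was +0.34 (SE 0.29), limma adjusted p 1, and the groups overlapped. For each of the other 7 genes some animals were higher and others lower after injury.

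The KO animal of replicate 2 differed from the other 2 KO animals. Between its uninjured and injured libraries Meg3 was 1.52 higher, Peg3 1.19 higher, Cdkn1c 1.13 higher, Ndn 1.03 higher and Grb10 1.18 higher on the log2(RPM + 1) scale, and H19 was 0.67 lower (a difference of -0.67). In KO replicate 1 Meg3 moved the opposite way, from 14.5 to 4.79 RPM, a difference of -1.42. In KO replicate 3 the differences of Peg3, H19, Meg3, Cdkn1c and Grb10 lay between -0.03 and 0.20, and that of Ndn was 0.31. Myf6 in the injured library of replicate 2 was at 2.88 RPM, like the other KO libraries, and its mitochondrial share was 23.2%. Its Schwann cell markers summed to 725.8 RPM against 144.9 and 236.2 RPM in the other injured KO libraries, and its endothelial markers to 638.2 against 310.3 and 274.7 RPM. Smooth muscle and pericyte markers summed to 723.4 against 476.8 and 536.1 RPM. Its regenerating fibre markers summed to 798.7 against 2201 and 1957 RPM, and its myofibre markers to 151000 against 194800 and 197900 RPM. Its satellite cell, fibro-adipogenic progenitor and tendon cell sums were the highest of the injured KO libraries. Its macrophage and adipocyte sums lay between those of the others. The part of these in the values of the imprinted genes was not tested.

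**Figure D3:**
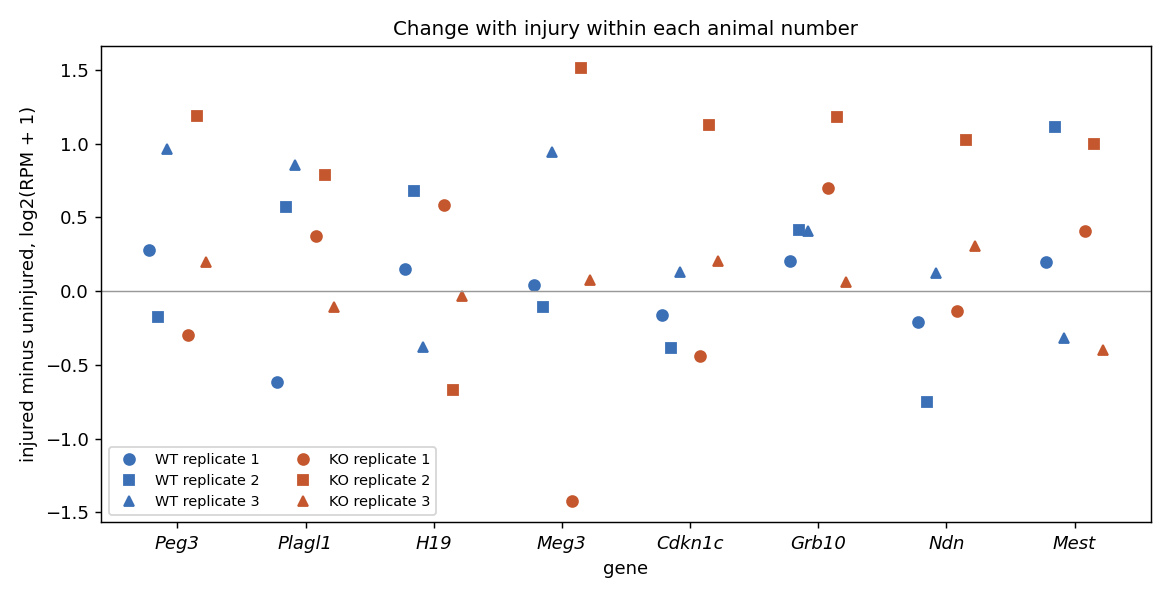
Injured minus uninjured library of the same animal number (y axis, log2(RPM + 1)) for each gene, in blue for 3 WT and orange for 3 KO animals, with symbols for replicates. Only for Grb10 do all 6 points lie above 0, and KO replicate 2 is the highest point for Peg3, Meg3, Cdkn1c, Grb10 and Ndn and the lowest for H19.

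Imprinted genes lie in clusters that share control regions, so the neighbours of the 8 genes were taken from a list of 37, of which 36 were in the tables. In uninjured muscle 16 of them passed the filter and 0 were called by limma, while 2 were higher and 5 lower by the unadjusted p of 0.05 alone, beside 3.53% and 10.7% of all genes. In injured muscle 17 passed and 1, Snhg14, was called as lower in KO by limma, while 2 were higher and 3 lower by the unadjusted p alone, beside 5.06% and 5.26% of all genes. Their median difference was -0.27 in uninjured and 0.00 (-0.003) in injured muscle, beside -0.18 and 0.02 for all genes. Neighbours lower in all KO libraries numbered 4 of 16 and 3 of 17, beside 15.5% and 8.63% of all genes. Those higher in all numbered 2 and 3, beside 6.2% and 8.29%. The same shares apply to each gene described below as lower or higher in all KO libraries.

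Beside Peg3, the zinc finger gene Zim1 was at 4.89, 2.13 and 8.73 RPM in uninjured WT and at 2.02, 0.157 and 2.62 RPM in uninjured KO. Its differences were -1.28 in uninjured and -0.88 in injured muscle, and neither passed in limma, while DESeq2 called it in injured muscle (-1.15, adjusted p 0.0397). Usp29, which shares its start region with Peg3 and is named after its values were seen, was at 0 to 0.140 RPM in all 12 libraries, and Zim1 was the only neighbour of Peg3 that could be fitted in both states. Beside H19, Igf2, the fetal growth factor that shares enhancers with it, had means of 32.1 ± 14.4 RPM in WT and 64.0 ± 27.1 RPM in KO without injury, and 29.0 ± 9.73 and 59.5 ± 11.4 RPM with injury (SD, n = 3 each). All injured KO libraries were above all injured WT libraries for Igf2. Its differences were +0.99 (limma adjusted p 0.346) and +1.06 (limma adjusted p 0.315), so the change did not pass in limma, while DESeq2 called it in injured muscle (+1.05, adjusted p 0.0453). Nctc1, a non-coding gene on the other side of H19, was at +0.16 and -0.03.

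Beside Meg3, the maternally expressed RNA Rian was at 13.7, 5.85 and 9.78 RPM in uninjured WT and at 3.23, 0 and 5.31 RPM in uninjured KO. In injured muscle Rian was at 23.2, 18.2 and 17.0 RPM in the WT libraries and at 6.69, 9.24 and 5.81 RPM in the KO libraries. Every KO value was under every WT value in both states, with differences of -1.78 (limma adjusted p 0.263) and -1.32 (limma adjusted p 0.105). The closest uninjured values were 5.31 RPM in KO replicate 3 and 5.85 RPM in WT replicate 2. That WT value is 11 reads in the shallowest library, so the uninjured gap is small beside counting error. DESeq2 called Rian in injured muscle (-1.43, adjusted p 7.42e-05). Injured KO replicate 2, within the WT range for Meg3, was the highest injured KO library for Rian too, but stayed below all WT libraries. Mirg, another RNA of the same maternal series, was at 3.43 RPM in that library and at 0.294 and 0.466 RPM in the other 2 injured KO libraries. The differences of Mirg were -0.96 and -0.43. Dlk1, the paternally expressed gene of the domain, was at +0.67 and +0.72, also short of the threshold.

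Beside Cdkn1c, none of the 5 neighbours fitted in both states passed in either with limma. Kcnq1ot1, the antisense RNA that silences this domain on the paternal allele, was at -1.12 and -0.56. Its highest library was again injured KO replicate 2, at 10.4 RPM against 1.097 and 1.56 RPM in the other 2. DESeq2 called Nap1l4 in uninjured muscle (+0.81, adjusted p 0.0254). By limma, Tssc4 was at +0.71 and -0.02, Nap1l4 at +0.60 and +0.39, Cd81 at -0.07 and 0.00 (-0.003) and Osbpl5 at -0.16 and +0.28. The directions of Cd81 in both states and of Osbpl5 in uninjured muscle depended on the scaling. Beside Mest, Copg2 was at -0.38 and +0.21, and the library kit does not mark strand, so reads where Mest and Copg2 overlap cannot be told apart.

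Beside Ndn, Snhg14 was the only listed imprinted gene called by limma in either state, while DESeq2 called 7 listed genes in uninjured and 8 in injured muscle, beside the shares of all genes given above. Snhg14 is the long RNA that hosts small nucleolar RNAs and runs antisense through Ube3a. In injured muscle Snhg14 was at 15.2, 12.7 and 15.2 RPM in the WT libraries and at 4.44, 4.37 and 3.38 RPM in the KO libraries, a difference of -1.60 (SE 0.19, limma adjusted p 0.0307). In uninjured muscle it was at 23.4, 4.26 and 18.8 RPM in the WT libraries and at 4.11, 5.27 and 2.64 RPM in the KO libraries, and the groups overlapped (-1.48, limma adjusted p 0.287). The injured call was lost without any 1 of the 5 injured libraries other than KO replicate 2 (limma adjusted p 0.156 to 0.396). Over all alternatives its adjusted p ranged from 5.39e-13 to 0.396. Without injured KO replicate 2 it was 0.0046 in limma, and 12 imprinted genes of the lists were called, among them Rian (-1.49), Kcnq1ot1 (-1.32), Nap1l4 (+0.76) and Snrpn (+0.75), in a fit that called 2343 genes in all. Ube3a, whose reads cannot be told apart from antisense Snhg14 reads where they overlap, was at -1.24 and +0.06. Snrpn, at the start of that domain, was at 27.2, 19.7 and 27.2 RPM in uninjured WT and at 40.9, 49.7 and 58.9 RPM in uninjured KO, with all KO libraries higher (+0.98, limma adjusted p 0.183, and +1.24 with an adjusted p of 0.00498 in DESeq2). In injured muscle Snrpn was at +0.23 with overlap, and Atp10a was at -0.94 and -0.18. Over the 12 libraries Pearson's r of log2(RPM + 1) with the mitochondrial share was -0.89 for Snrpn and 0.93 for Kcnq1ot1. It was 0.60 for Mirg, 0.30 for Snhg14, 0.09 for Dlk1, 0.07 for Rian, -0.01 for Zim1 and -0.06 for Igf2. The part of that share in these differences was not tested.

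**Figure D4:**
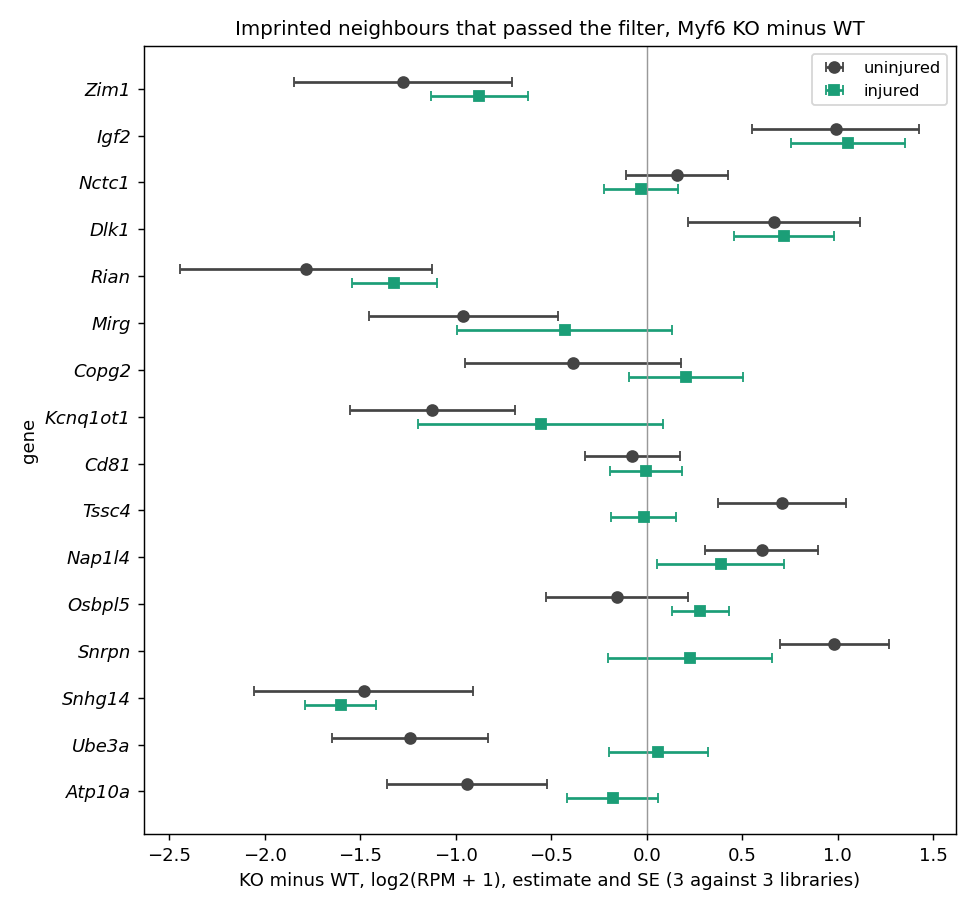
Difference between KO and WT (x axis, log2(RPM + 1), with its standard error) of the 16 imprinted neighbours fitted in both states, circles for uninjured and squares for injured muscle. Rian and Snhg14 lie below 0 and Igf2 and Dlk1 above 0 in both states, and Snhg14 in injured muscle (-1.60) was the 1 value that passed in limma.

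A further list of 40 imprinted genes outside these clusters had 29 members fitted in uninjured and 28 in injured muscle. limma called 0 in both, while in each 3 were higher and 4 lower by the unadjusted p of 0.05 alone (14.2% and 10.3% of all genes in either direction), with medians of -0.13 and 0.04. Nnat, a paternally expressed gene for a small membrane proteolipid, is named after its values were seen. In uninjured muscle Nnat was at 0.772, 2.66 and 9.36 RPM in the WT libraries and at 28.9, 17.7 and 41.6 RPM in the KO libraries. In injured muscle it was at 1.80, 1.05 and 9.11 RPM in the WT libraries and at 14.2, 16.5 and 29.8 RPM in the KO libraries. All KO libraries were above all WT libraries in both states, with differences of +2.82 (limma adjusted p 0.097) and +2.38 (limma adjusted p 0.269) that did not pass. DESeq2 called Nnat in both states. Among the alternatives, limma called uninjured Nnat with no filter (adjusted p 0.00561), upper quartile scaling (0.0284), TMM (0.0371) and the replicate block (0.00333). Over all alternatives its uninjured adjusted p reached 0.491. Injured Nnat was called by limma only without KO replicate 2 (adjusted p 0.0394).

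Genes that act with the members of the group showed no call in limma. Of 13 genes of insulin and Igf1 receptor signalling, on which Grb10 and Igf2 act, 12 were fitted and 0 called, with medians of -0.11 in uninjured and 0.31 in injured muscle. Of 15 Cdk inhibitors and their partners, the family of Cdkn1c, 14 were fitted and 0 called, with medians of 0.04 and 0.22. Of 9 genes for Peg3 protein partners and Tnf signalling, 8 were fitted and 0 called, with medians of -0.09 and -0.05. At an unadjusted p under 0.05 these 3 lists had 2, 0 and 1 genes in uninjured and 2, 1 and 1 in injured muscle, where 14.2% and 10.3% of all genes passed.

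Markers of cell types found in muscle were set beside these values. The summed level of 10 satellite cell markers was 136 to 160 RPM in uninjured WT, 140 to 181 RPM in uninjured KO, 157 to 175 RPM in injured WT and 165 to 183 RPM in injured KO. The sum of 9 fibro-adipogenic progenitor markers was 684 to 1750, 568 to 1153, 1192 to 1382 and 1052 to 1295 RPM in the same order. Of these 9 markers, 7 had lower estimates in KO in each state, 0 were called by limma, and 3 in uninjured and 1 in injured muscle were lower at an unadjusted p under 0.05. The sum of 6 macrophage markers was 85.6 to 163, 50.9 to 82.2, 109 to 141 and 91.2 to 98.0 RPM, lower in all KO libraries in both states, as Peg3 was. Of single genes, 15.5% in uninjured and 8.63% in injured muscle were lower in all KO libraries. The closest uninjured sums were 82.2 RPM in KO replicate 3 and 85.6 RPM in WT replicate 2, the shallowest library. Other scalings were not tried for this sum. The sum of 6 adipocyte markers was 1199 to 2008, 1701 to 3187, 383 to 1314 and 1377 to 2992 RPM, and all 6 had higher estimates in KO in both states, as H19, Igf2 and Nnat did. Of these macrophage and adipocyte markers 0 were called by limma, and 3 and 1 macrophage and 4 and 3 adipocyte markers moved that way at an unadjusted p under 0.05 (all genes: 10.7% and 5.26% lower, 3.53% and 5.06% higher). The sum of 4 regenerating fibre markers was 664.9 to 1039 RPM in uninjured WT and 1265 to 2340 RPM in uninjured KO, and 1061 to 1795 and 798.7 to 2201 RPM with injury. Like H19, it was lowest among the KO libraries in replicate 2 of each state, and 0 of the 4 were called by limma. Between WT and KO the sums of endothelial, smooth muscle and pericyte, Schwann cell and tendon cell markers overlapped in both states, and limma called 0 of these. No marker was at 0 in all libraries of a group, and the part of these cell types in the differences of the imprinted genes was not tested.

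For each gene the 3 others with the most similar pattern were ranked by Pearson's r of log2(RPM + 1) over the 12 libraries, which come from 6 animals and include the genotype difference, so r is only a description. For Peg3 these were Cd300a (0.978), Pdpn (0.967) and Sec61b (0.961). Pdpn, podoplanin, was at 9.57 to 11.2 RPM in uninjured WT and 1.81 to 3.69 RPM in uninjured KO. For H19 they were Agpat3 (0.983), Lbh (0.944) and Klb (0.921). Agpat3 was, like H19, lowest among the injured KO libraries in replicate 2, at 63.7 RPM against 122.8 and 113 RPM. For Meg3 they were Snrnp70 (0.970), Xpo6 (0.961) and Gm15675 (0.959), and for Cdkn1c they were Nupr1 (0.954), Cyba (0.950) and Mirg (0.949). Mirg was the only gene of the imprinted lists among the 24 ranked. For Grb10 they were Rufy3 (0.958), Sestd1 (0.952) and Ints8 (0.949), and for Ndn they were Cers5 (0.940), Rnft2 (0.937) and 5430403G16Rik (0.933). Mest had Slc9a2 (0.949), Gas6 (0.949) and 9030624J02Rik (0.946), and Plagl1 had Pgm3 (0.946), Kcnn2 (0.917) and Galnt4 (0.916), both members being at few reads.

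The Myf6 peaks near the 8 genes were placed by the distance of each summit from the gene's RefSeq span in GRCm38.p6, the assembly version matching mm10 in the submitters' processing notes. The authors' list holds 12898 peaks with a median fold enrichment of 7.68 over local background, and enrichment is the authors' value. Of the 8 genes, 7 had a peak within 100 kb (87.5%), beside 75.9% of the genes fitted here, and 1 had a peak within 10 kb (12.5%), beside 35.8%. With 1 ChIP library there is no replicate, and no test was made.

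Peg3 (chr7:6703892-6730462) had 5 peaks, all upstream at 18960 to 46921 bases and all within Usp29. The strongest of these, at chr7:6756886-6757095, had a fold enrichment of 10.1, and the nearest, at chr7:6749302-6749578, had 8.57. No Peg3 peak lay within 10 kb, so the promoter window printed above held none. H19 (chr7:142575530-142578146) had 5 peaks at 22.5 to 79.2 kb, among them chr7:142600943-142601145 with a fold enrichment of 12.5 and 1 inside Nctc1 with 4.76. Grb10 (chr11:11930499-12037428) had 6 peaks beyond its far end at 37.1 to 94.2 kb, all within Ddc, with fold enrichments of 6.35 to 10.5. Cdkn1c (chr7:143458339-143461059) had 3 peaks at 56.7 to 93.5 kb, including 1 within Nap1l4 with 14.1, the highest fold near any of the 8 genes. Having 5 or more peaks within 100 kb, as Peg3, H19 and Grb10 did, was seen in 18.2% of the genes fitted.

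Plagl1 (chr10:13090832-13131694) had the nearest peak of the group, 8.21 kb upstream at chr10:13082526-13082739, with a fold enrichment of 13.2. Meg3 (chr12:109540996-109571729) had 1 peak 24.1 kb beyond its end, within Rtl1, with a fold enrichment of 9.34. Mest (chr6:30733506-30748466) had 1 peak 29.4 kb upstream, within Cep41, with 6.51. Ndn (chr7:62348277-62349928) had 0 peaks within 100 kb. Whether these peaks bear on the differences between the genotypes was not tested.

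**Figure D5:**
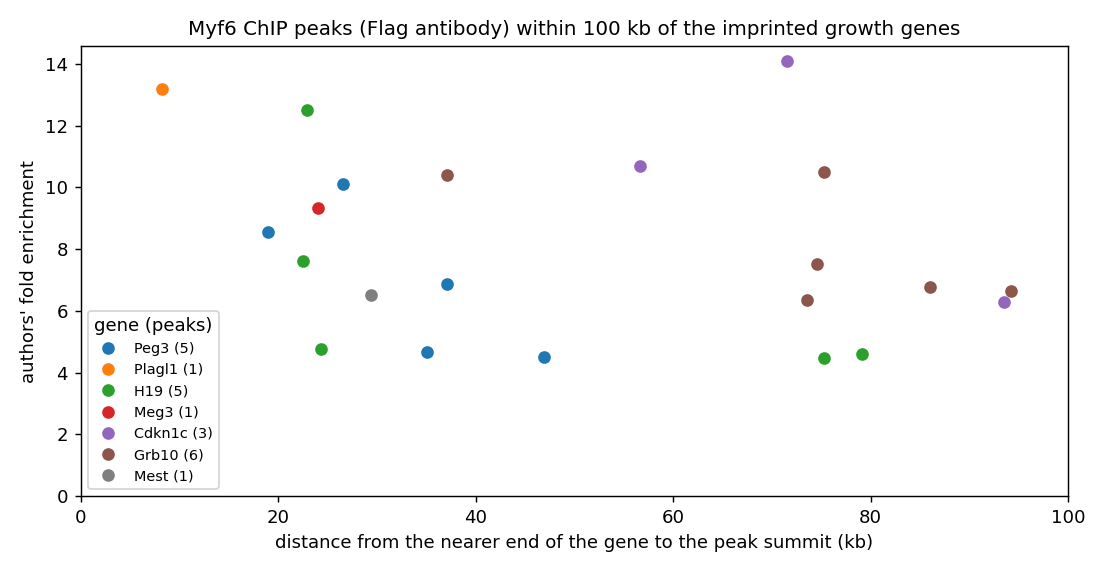
Each point is 1 peak of the authors' Myf6 list within 100 kb of an imprinted gene of the group, with the distance of its summit from the nearer end of the gene (x axis, kb) and the authors' fold enrichment (y axis). The Plagl1 peak at 8.21 kb is the nearest, the 5 Peg3 peaks lie at 18960 to 46921 bases, and Ndn has none.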

How the data were processed

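The authors deposited RPM per gene and library, that is reads of a gene per 1000000 assigned reads, per the file headers, with their own log2 fold changes, p-values and q-values, which were not used. Libraries were made with the TruSeq RNA v2 kit, per the labels' protocols. The submitters' processing notes name HISAT2 2.1.0, SAMtools, featureCounts, DESeq2, Bowtie 1.1.0, MACS2 2.1.0.20140616 and the builds mm10 and GRCm38.p5. Peaks were deposited with signal height, fold enrichment (a ratio) and −log10 p and q, called with MACS2 per the file headers. The treatment of strand and of multi-mapping reads is not given in the sources used here.

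limma 3.58.1 (R 4.3.3), with lmFit and eBayes with a trend, was fitted to log2(RPM + 1) over genes that reached 1 RPM in 3 or more of the fitted libraries, and p-values were adjusted by Benjamini-Hochberg over all genes (two-sided, threshold 0.05). KO and WT were compared on their own 6 libraries, and injury and its interaction on all 12. The log2(RPM + 1) scale understates the change of low genes. Groups came from the titles and labels. p-values measure the spread between 3 libraries of a group. Whole reads were recovered from the RPM steps (100% of values whole within 0.1 read) for edgeR 4.0.16 and DESeq2 1.42.0, which were alternatives beside other scalings, a pseudocount of 0.1, no filter, a replicate block and each library left out. The fit was also run on simulated counts with the same fixed spread for all genes, so that run gives no error rate for these data. The library pairs of a group differed by more than sampling noise (lowest mean chi-square per gene 13.1). Uninjured and injured libraries pair by the animal number in the descriptions; their deviations correlated at a mean r of 0.02 in WT and 0.39 in KO, and the animal as a block changed no injury call.

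The 8 genes and all lists were chosen with earlier results of these data known. Named besides them were imprinted neighbours that pass the filter in both KO and WT fits, other imprinted genes that are called, Myf6, and for each of the 8 the 3 genes with the highest r. Usp29, Mir675 and Nnat fall outside that rule and were named after their values were seen, and the overlap of groups under other scalings was an alternative added then.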

Additional observations from a re-analysis of the deposited data

How the results depend on the processing

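The KO minus WT differences of Peg3, H19, Meg3 and Cdkn1c kept their sign in both states under every alternative run, and those of Grb10 and Ndn did so in uninjured muscle. Of 15 alternatives, 12 kept the sign of Grb10, Ndn and Mest in injured muscle and 10 that of Mest in uninjured muscle. Counts of called genes moved widely. In uninjured muscle limma called 35 genes (45.7% higher in KO). The count was 20 with a pseudocount of 0.1, 163 with no filter, 155 (63.9% higher) with upper quartile scaling, 108 (56.5%) with TMM, 205 (15.6%) when scaled outside mitochondrial reads, 663 with DESeq2, 55 with edgeR and 167 with all 12 libraries in 1 fit. It ran from 3 to 84 with 1 library left out. In injured muscle the 34 calls became 4 with no filter, 427 with DESeq2 and 56 with all 12 libraries in 1 fit. Leaving out 1 library gave 0 to 2343 calls, with 2343 without KO replicate 2 and 0 without any other. With no filter, 1 gene was called for injury in KO and 1 for the interaction. With 1 library left out, the calls for injury in KO were 0 to 1.

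Listed imprinted genes called in uninjured muscle were 0, against 1 with no filter, 1 with upper quartile scaling, 1 with TMM and 7 with DESeq2. In injured muscle the 1 call became 0 with no filter, 0 outside mitochondrial reads, 0 with all 12 libraries in 1 fit, 8 with DESeq2 and 0 to 12 with 1 library left out. A window of 10 kb left 1 of 7 genes with a Myf6 peak. The causes were not tested.

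Replicate numbers join different animals of the 2 genotypes. Same-numbered deviations correlated at 0.04, 0.26 and 0.37 in uninjured and at -0.45, -0.60 and -0.30 in injured muscle. With the number as a block the calls were 752 and 0, and those of listed imprinted genes 9 and 0, with Snhg14 in injured muscle at a limma adjusted p of 0.378. A closest match to the own number was found for 2 of 3 uninjured and 0 of 3 injured libraries.

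Directions of small estimates that did not pass turned. Cd81 in uninjured muscle was at 0.185 with upper quartile scaling, 0.163 with TMM, 0.149 with DESeq2 and 0.141 with edgeR, and Osbpl5 at 0.075, 0.057, 0.060 and 0.044. Cd81 in injured muscle was at 0.000 with TMM and 0.002 with DESeq2. For injury in WT, Plagl1 was at -0.000 with DESeq2 and -0.002 with edgeR. For injury in KO, H19 was at 0.001 outside mitochondrial reads, Meg3 at -0.297 with upper quartile scaling and -0.199 with TMM, and Cdkn1c at -0.067 with upper quartile scaling, -0.008 with DESeq2 and -0.000 with edgeR. For the interaction, with upper quartile scaling, TMM, DESeq2 and edgeR, Peg3 was at -0.271, -0.196, -0.170 and -0.178 and Mest at -0.045, -0.031, -0.324 and -0.324, and Meg3 was at 0.087 with DESeq2 and 0.080 with edgeR. With 1 library left out, the estimate in KO against WT without injury ran from -0.003 to 0.326 for Nctc1, -0.878 to 0.235 for Copg2, -0.233 to 0.018 for Cd81, -0.453 to 0.125 for Osbpl5. The same estimate in KO against WT with injury ran from -0.199 to 0.083 for Nctc1, -0.014 to 0.531 for Copg2, -0.116 to 0.085 for Cd81, -0.080 to 0.051 for Tssc4, -0.075 to 0.751 for Snrpn, -0.182 to 0.214 for Ube3a. The same estimate with injury in WT ran from -0.246 to 0.546 for H19, -0.175 to 0.696 for Meg3, -0.279 to 0.053 for Cdkn1c, -0.043 to 0.733 for Plagl1. The same estimate with injury in KO ran from -0.534 to 0.664 for H19, -0.850 to 0.539 for Meg3, -0.259 to 0.812 for Mest. The same estimate in the interaction ran from -0.333 to 0.242 for Peg3, -0.681 to 0.517 for H19, -1.143 to 0.246 for Meg3, -0.590 to 0.481 for Mest, -0.382 to 0.394 for Plagl1.

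Depth limits Mest and Plagl1 most, since 3 reads in the shallowest library correspond to 1.60 RPM.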
